A study of Mus musculus with 2 samples.

Results

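The matrix metalloproteinases (MMPs) and tissue inhibitors of metalloproteinases (TIMPs) described here are the 8 genes Mmp8, Mmp9, Mmp12, Mmp13, Mmp14, Mmp19, Timp1 and Timp2, found by symbol among the 31054 features counted in each library. Their RNA was measured by droplet single-cell sequencing of cells from tumours, sorted as positive for the red fluorescent protein mCherry, in adult mice at 24 weeks and young mice at 4 weeks of age. Tumours of several mice went into one sort for each age, which gave a single library (10x Genomics chemistry 3' v2, with 10000 cells aimed for), and both samples carry the label d7. The strain, the sex, the tumour and the cells that carried the mCherry gene are not named in the labels used here, and no mutation or drug is named for either age. With 1 library per age there is no test of age: every interval below is a 95% interval of counting error alone, and a difference of age cannot be told apart from one of sort, pool of mice or library.

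MMPs are zinc proteases that cut collagen, elastin, basement membrane and many cell surface and secreted proteins. Most are made as inactive precursors, and TIMPs block the active enzymes by binding the catalytic site. In tumours, macrophages and neutrophils are known sources of several MMPs, and TIMP proteins also act on cells apart from their inhibitor role.

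After filtering (at least 200 genes and at most 10% mitochondrial counts), 5774 adult and 7090 young cells were kept, with median totals of 9660 and 9841.5 unique molecular identifiers (UMIs, each a counted RNA molecule). The libraries shared 111 cell barcodes. Cells were put in 4 classes in a fixed order. The mCherry-high class (at least 10 UMIs of the mCherry construct) held 476 adult and 423 young cells. The neutrophil-rule class (S100a8 and S100a9 together at 1% of UMIs or more) held 195 and 122. The Csf1r-positive class (at least 1 UMI of Csf1r, the macrophage growth factor receptor) held 4358 and 5520, and 745 and 1025 cells remained. The neutrophil-rule cells were shallow, with median totals of 1907 UMIs in the adult and 2163 in the young library, and other neutrophil genes were present there, such as Csf3r at 381 and 300 CPM (counts of a gene scaled to a fixed total of all genes) and Retnlg at 1237 and 549 CPM. All 11 macrophage markers, Csf1r among them, were detected in Csf1r-positive and in mCherry-high cells of both libraries, so detection does not set these classes apart. The markers summed to 13845 CPM in adult and 16534 CPM in young Csf1r-positive cells. Their sums were 777 and 1323 CPM in mCherry-high cells, 6912 and 8325 CPM in neutrophil-rule cells and 6808 and 10442 CPM in the remaining cells. Of the adult mCherry-high cells 36.6% had a Csf1r UMI, and of the young ones 46.6%, so that class is not free of macrophage RNA. Most cells were not rich in mCherry RNA despite the sort: of Csf1r-positive cells 81.8% of the adult and 82.2% of the young had 0 mCherry UMIs. Doublets were not removed, because the doublet caller marked 2 adult and 3 young cells and so did not work.

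Each member had a main source among the classes, and the source was mostly the same at both ages. Levels here are CPM of the summed UMIs of a class, and they are compared between classes for 1 gene at a time. Csf1r-positive cells, which held 69.1% of all adult and 72.5% of all young UMIs, gave 91.4% and 88.9% of the Mmp12 UMIs. They gave 92.3% of the adult and 87.1% of the young Mmp13 UMIs, and 91.8% and 88.8% of the Mmp19 UMIs. For Mmp14 their shares were 81.7% and 83.9%, and for Mmp8 they were 81.5% and 83.3%. Timp2 came mostly from mCherry-high cells, with 67.3% of its adult and 70.1% of its young UMIs in a class that held 24.4% and 20.5% of all UMIs. Mmp9 and Timp1 were the members whose sources differed between the libraries. Csf1r-positive cells gave 69.8% of the Mmp9 UMIs in the adult and 21.5% in the young library, and 81.0% of the Timp1 UMIs in the adult and 58.5% in the young library.

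**Figure D1:**
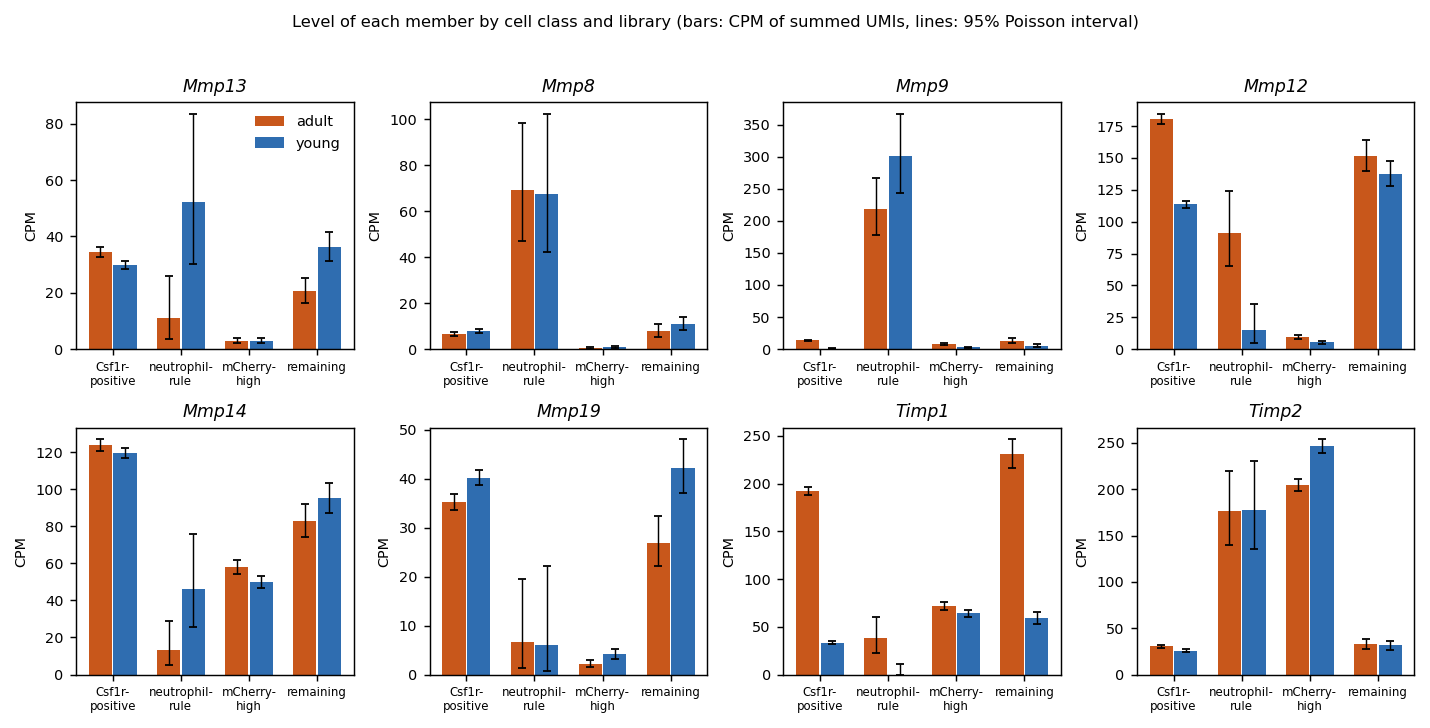
Level of each member (CPM of summed UMIs, y axis) in the 4 cell classes (x axis), with adult cells in orange and young cells in blue and lines for the 95% Poisson interval. Mmp8 and Mmp9 stand highest in the neutrophil-rule class, Timp2 in the mCherry-high and neutrophil-rule classes, and Timp1 in Csf1r-positive cells is at 192 CPM in the adult and 33.2 CPM in the young library.

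Between the ages, Timp1 was higher in the adult library in Csf1r-positive cells and in the remaining cells. A feature was counted as higher or lower in the adult library when its level reached 10 CPM in 1 of the libraries or both, it differed by 1.5-fold or more and had a ratio interval that left out 1. In Csf1r-positive cells 7 members reached 10 CPM, and 3 of them (Timp1, Mmp9 and Mmp12) were higher, where 2.5% of all 6490 features measured were. None of the 7 was lower, against 3.42% of features. In the remaining cells Timp1 and Mmp9 were higher (8.55% of features) and Mmp13 and Mmp19 were lower (7.23% of features). In neutrophil-rule cells Timp1 and Mmp12 were higher (3.16% of features) and Mmp13 and Mmp14 were lower (6.79% of features), all from 41 or fewer UMIs. In mCherry-high cells 3 members were measured and 0 passed in either direction (0.948% of features were higher and 4.29% lower).

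**Figure D2:**
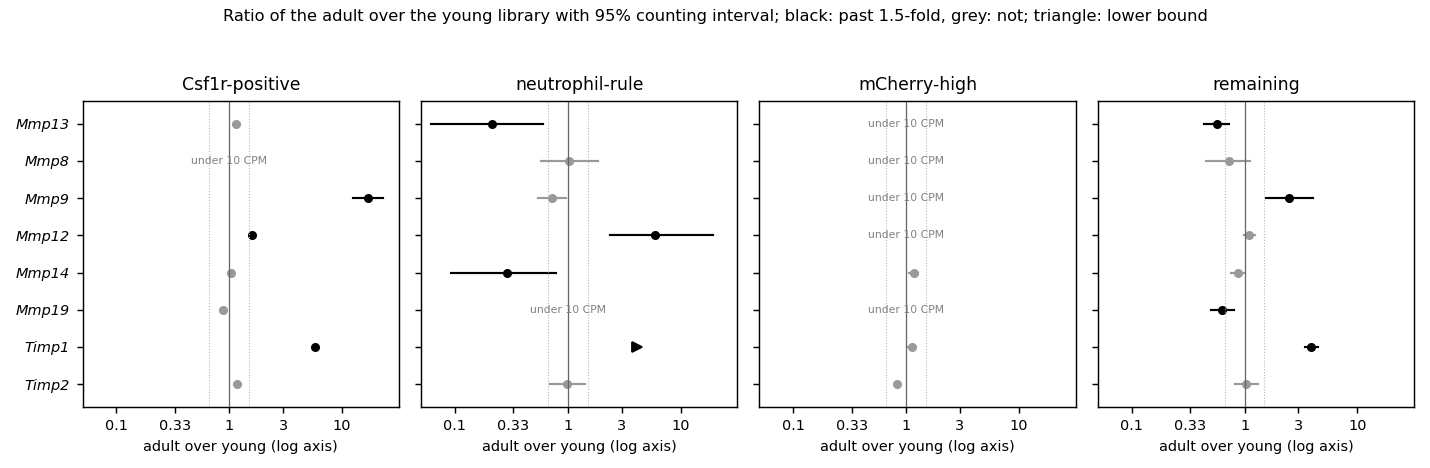
Ratio of the adult over the young library for each member (rows) in each class (panels), on a log axis, with the 95% counting interval as a line. Black marks passed 1.5-fold with an interval that left out 1, grey marks did not, members under 10 CPM in both libraries have no mark, the dotted lines stand at 1.5-fold in each direction, and the triangle is the lower bound for Timp1 in neutrophil-rule cells, where the young library held 0 UMIs.

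Among the collagenases, which cut fibrillar collagen, Mmp13 (ENSMUSG00000050578, mm10 chr9:7272514-7283331, plus strand) came mostly from Csf1r-positive cells, at nearly the same level at both ages. It stood at 34.5 CPM (32.9 to 36.2) in adult and 29.8 CPM (28.5 to 31.2) in young Csf1r-positive cells, a ratio of 1.16 (1.08 to 1.24). Of these cells 10.7% of the adult and 11.7% of the young had an Mmp13 UMI. In mCherry-high cells the level was 2.93 and 3.02 CPM. Remaining cells with at least 2 UMIs of T cell markers (123 adult and 52 young cells) serve here as a gauge of free RNA. They held 2 adult Mmp13 UMIs and 1 young one. Macrophage markers summed to 1440 CPM in the adult and 547 CPM in the young gauge cells. Whether these cells measure free RNA alone was not tested. Mmp13 was lower in the adult library among the remaining cells, at 20.5 against 36.3 CPM, which rested on 84 adult and 201 young UMIs. The neutrophil-rule class held 5 adult and 17 young Mmp13 UMIs, and 1 young cell held 12 of them. None of the 4 differences counted in neutrophil-rule cells passed with the class drawn at 0.5% of UMIs.

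Mmp8, the collagenase stored in neutrophil granules (ENSMUSG00000005800, chr9:7558456-7568485, plus strand), was at its highest in neutrophil-rule cells. It stood there at 69.1 CPM (47.0 to 98.1) in the adult and 67.5 CPM (42.3 to 102) in the young library, from 31 and 22 UMIs, and 13 of the 31 adult UMIs lay in 1 cell. Csf1r-positive cells were at 6.49 and 7.89 CPM, under the 10 CPM limit, and mCherry-high cells at 0.469 and 0.813 CPM. Cells with T cell markers held 0 Mmp8 UMIs in both libraries. Because Csf1r-positive cells were so many, they still gave most Mmp8 UMIs, 313 in the adult and 480 in the young library.

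Mmp12, the macrophage elastase (ENSMUSG00000049723, chr9:7344381-7369499, plus strand), was higher in adult than in young Csf1r-positive cells. The level was 181 CPM (177 to 184) in the adult and 114 CPM (111 to 117) in the young library, a ratio of 1.59 (1.54 to 1.64), and 28.2% of adult against 19.6% of young cells had an Mmp12 UMI. With each cell thinned to 3000 UMIs these shares were 15.7% and 10.8%, and the ratio of levels, 1.49, was short of 1.5. In the remaining cells the levels were 152 and 138 CPM, and in mCherry-high cells 9.5 and 5.46 CPM. Cells with T cell markers were at 9.87 and 5.50 CPM, so the level in Csf1r-positive cells is far above that gauge. The difference between the ages was not the same in every kind of Csf1r-positive cell. Cells without a Ly6c2 UMI were at 240 CPM in the adult and 276 CPM in the young library, whereas cells with one were at 166 and 102 CPM, a ratio of 1.62 (1.57 to 1.68). Neutrophil-rule cells held 41 adult and 5 young Mmp12 UMIs, 19 of the adult ones in 1 cell. Beside that, the monocyte markers there summed to 1712 CPM in the adult and 3698 CPM in the young library, and the part of such cells in the member values was not tested.

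Mmp12, Mmp13 and Mmp8 lie within 296 kb of chromosome 9 in a run of 7 Mmp genes, and their UMIs tended to fall in the same Csf1r-positive cells at both ages. Cells with an Mmp12 UMI stood at 64.1 CPM of Mmp13 in the adult library, against 20.5 CPM in cells without one, a ratio of 3.12 (2.83 to 3.45). In the young library the values were 72.3 and 17.8 CPM, a ratio of 4.05. Seen from the other gene, cells with an Mmp13 UMI had 474 CPM of Mmp12 in the adult library against 141 CPM without, and 338 against 79.3 CPM in the young library. Cells with an Mmp8 UMI had 304 against 173 CPM of Mmp12 in the adult and 308 against 101 CPM in the young library. Mmp3 and Mmp10, which lie between Mmp12 and Mmp8, did not reach 10 CPM in Csf1r-positive cells. Differences were also seen with members on other chromosomes, some of them as large. The 32 young cells with an Mmp9 UMI had more Mmp8 (ratio 3.13), Mmp13 (2.81) and Mmp12 (1.91) than those without. In the 66 adult cells with one these ratios were 0.503, 0.377 and 0.849, while Timp2 was higher (2.51). Few cells weighed heavily in the Timp2 ratio: the 4 adult cells richest in Mmp9, described below, held 6, 12, 6 and 14 of its 68 UMIs. The ratio without them was not computed. Cells with an Mmp19 UMI had more Mmp12 than those without (ratio 1.53 in the adult and 1.47 in the young library), and cells with an Mmp13 UMI had more Timp2 (1.61 in both). Cells with an Mmp14 UMI had 1.39 times the Mmp12 level in the adult and 1.11 times in the young library, while Mmp14 itself was at 123 and 124 CPM in adult cells with and without an Mmp12 UMI. Cells with a UMI of either gene were deeper than those without, for Mmp12 with medians of 12048 against 9561 UMIs in the adult and 11472 against 10129 in the young library, which CPM of summed counts scales for. Timp1 did not follow Mmp12. It stood at 140 CPM in adult cells with an Mmp12 UMI against 217 CPM in those without, and at 33.6 against 33.1 CPM in young cells. With the other neighbours its direction differed between the libraries. In cells with an Mmp13 UMI Timp1 was at 154 against 197 CPM in the adult and 46.7 against 31.1 CPM in the young library. In cells with an Mmp8 UMI it was at 264 against 188 CPM and 26.4 against 33.6 CPM.

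The windows of 250 bases before the starts of these neighbouring genes and of Timp1 are shown because the neighbours were high in the same cells and the comparison of ages turns on Timp1, and because MMP genes are textbook targets of AP-1, the Fos and Jun family of transcription factors. The sequences are from RefSeq (GRCm38.p6), 5′ to 3′ on the plus strand, at chr9:7272264-7272513 for Mmp13, chr9:7344147-7344396 and chr9:7347124-7347373 for 2 annotated starts of Mmp12, chr9:7558179-7558428 for Mmp8 and chrX:20869916-20870165 for Timp1. Capitals mark the AP-1 motif TGACTCA or its reverse complement TGAGTCA, so both strands were searched.
Mmp13: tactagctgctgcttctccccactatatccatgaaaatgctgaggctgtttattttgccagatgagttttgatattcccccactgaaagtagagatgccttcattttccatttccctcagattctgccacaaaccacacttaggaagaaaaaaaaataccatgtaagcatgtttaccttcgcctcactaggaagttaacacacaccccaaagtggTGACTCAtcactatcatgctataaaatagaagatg
Mmp12, first start: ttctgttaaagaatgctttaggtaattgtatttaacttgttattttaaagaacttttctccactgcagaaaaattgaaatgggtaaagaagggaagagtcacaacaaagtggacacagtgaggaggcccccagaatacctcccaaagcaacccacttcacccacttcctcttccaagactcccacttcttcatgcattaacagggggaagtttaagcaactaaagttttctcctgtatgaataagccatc
Mmp12, second start: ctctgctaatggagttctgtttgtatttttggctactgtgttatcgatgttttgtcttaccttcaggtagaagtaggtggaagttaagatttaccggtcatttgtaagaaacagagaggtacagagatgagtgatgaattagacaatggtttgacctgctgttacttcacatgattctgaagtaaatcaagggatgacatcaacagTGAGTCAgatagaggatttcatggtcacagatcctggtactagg
Mmp8: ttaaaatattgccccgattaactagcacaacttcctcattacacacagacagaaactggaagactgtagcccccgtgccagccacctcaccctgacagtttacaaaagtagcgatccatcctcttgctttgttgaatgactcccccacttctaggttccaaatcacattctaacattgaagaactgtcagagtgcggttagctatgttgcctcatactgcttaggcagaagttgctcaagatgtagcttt
Timp1: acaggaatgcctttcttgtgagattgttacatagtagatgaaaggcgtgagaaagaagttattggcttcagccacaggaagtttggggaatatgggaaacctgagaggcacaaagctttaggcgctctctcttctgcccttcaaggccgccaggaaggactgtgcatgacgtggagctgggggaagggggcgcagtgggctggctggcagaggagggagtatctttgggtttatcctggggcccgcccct
The motif lies 35 bases before the start of Mmp13 and 44 bases before the second start of Mmp12. It is not among the letters of the first Mmp12 window, nor of the windows of Mmp8, Timp1 and Mmp14. Of the first Mmp12 window 16 bases lie in an exon of the GENCODE annotation used for positions, and of the Timp2 window 203 do, so the Timp2 window is not read as sequence before the start. Of 32851 windows of this length over all genes, 1466 (4.46%) hold it. Windows were found for 6 of the 8 members, with none for Mmp9 and Mmp19. Of the 8 AP-1 genes listed, 0 passed 1.5-fold in adult over young Csf1r-positive cells, with a median log2 ratio of 0.02 where the median of all features was -0.04.

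Mmp9, gelatinase B, which cuts denatured and basement membrane collagen and is stored in neutrophil granules (ENSMUSG00000017737, chr2:164940780-164955850, plus strand), was at its highest in neutrophil-rule cells. It stood there at 219 CPM (177 to 266) in the adult and 300 CPM (244 to 366) in the young library, with 98 UMIs in each, found in 51 of 195 and 46 of 122 cells. That class held 0.642% of all adult and 0.388% of all young UMIs but 10.4% and 43.0% of the Mmp9 UMIs. The ratio of 0.727 (0.544 to 0.972) did not pass 1.5-fold. In mCherry-high cells Mmp9 was at 7.63 CPM in the adult and 2.96 CPM in the young library, from 130 and 51 UMIs.

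In Csf1r-positive cells Mmp9 was at 13.6 CPM in the adult and 0.805 CPM in the young library, a ratio of 16.9 (12.6 to 23.0), but this rested on 3 adult cells. These cells held 304, 137 and 83 Mmp9 UMIs, together 80% of the 655 adult UMIs, whereas the highest young cell held 5. Without the 3 highest cells of each library the levels were 2.72 and 0.625 CPM, a ratio of 4.35 at a level under the 10 CPM limit. The 3 cells had 413, 149 and 133 UMIs of Ctsk (cathepsin K, a collagen-cutting cysteine protease) and 221, 552 and 163 of Acp5 (tartrate-resistant acid phosphatase). They also had UMIs of Atp6v0d2 (a proton pump subunit) and of the transcription factor gene Nfatc1. None of the 3 had a UMI of Ly6c2, Mmp12 or mCherry. The next adult cell, with 23 Mmp9 UMIs, had 135 of Ctsk. These 3 cells held 70.4% of all Ctsk UMIs of adult Csf1r-positive cells, and among the rest Ctsk was at 6.06 CPM in the adult and 1.64 CPM in the young library. Mmp9 was also higher in the adult library among the remaining cells, at 13.4 against 5.42 CPM (55 and 30 UMIs). Cells with T cell markers were at 12.7 and 2.75 CPM, from 9 UMIs and 1 UMI. Whether the remaining cells hold Mmp9 RNA apart from free RNA was not tested.

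**Figure D3:**
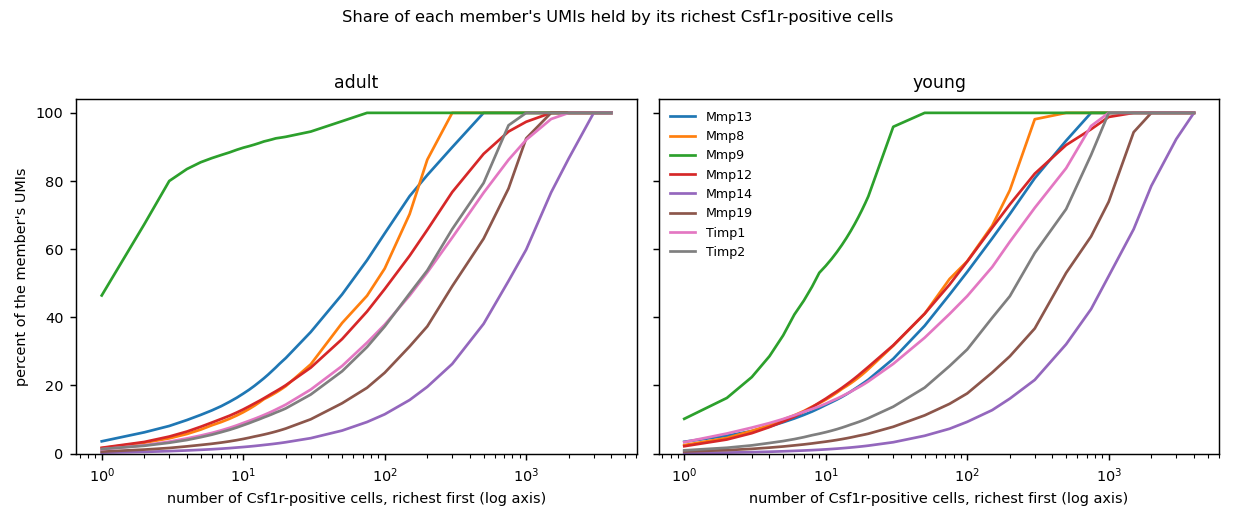
Share of each member's UMIs (y axis, percent) held by the Csf1r-positive cells richest in it, against the number of cells counted from the richest (x axis, log), in the adult (left) and the young library (right). The Mmp9 curve of the adult library reaches 80% with 3 cells, whereas 50% of the Mmp14 UMIs take 737 adult and 935 young cells.

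Members differed in how evenly Csf1r-positive cells held them. Mmp14, the membrane-bound MMP that activates pro-MMP2 (ENSMUSG00000000957, chr14:54431612-54445364, plus strand), was the most even, found in 64.2% of adult and 64.5% of young cells. Mmp19, a secreted MMP known to cut basement membrane proteins (ENSMUSG00000025355, chr10:128790910-128800824, plus strand), reached 50% of its UMIs in 308 adult and 463 young cells. For Timp1 this took 176 and 119 cells, for Mmp12 it took 108 and 77, for Mmp13 58 and 87, and for Mmp8 87 and 72.

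Mmp14 hardly varied with age or with any split of the Csf1r-positive cells. Its level was 124 CPM (120 to 127) in adult and 120 CPM (117 to 122) in young Csf1r-positive cells, a ratio of 1.03 (0.998 to 1.07). Over the subsets described below it ranged from 118 to 134 CPM in the adult and from 112 to 126 CPM in the young library. It stood lower in mCherry-high cells, at 58.0 and 49.9 CPM, and at 7.05 and 5.50 CPM in cells with T cell markers. Neutrophil-rule cells held 6 adult and 15 young UMIs. Mmp19 was at 35.2 CPM (33.5 to 36.9) in adult and 40.3 CPM (38.7 to 41.9) in young Csf1r-positive cells, a ratio of 0.874 (0.821 to 0.930) that did not pass 1.5-fold, and at 2.23 and 4.18 CPM in mCherry-high cells. In the remaining cells it was lower in the adult library, at 26.9 against 42.3 CPM (110 and 234 UMIs). Exons of Mmp19 overlap those of Tmem198b on the opposite strand, a gene with 314 adult and 360 young UMIs, and the use of strand in the counting is not given in the sources used here.

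Timp1, the secreted inhibitor that binds MMP9 among others (ENSMUSG00000001131, chrX:20870166-20874735, plus strand), was higher in adult than in young Csf1r-positive and remaining cells. In Csf1r-positive cells it stood at 192 CPM (188 to 196) in the adult and 33.2 CPM (31.8 to 34.7) in the young library, a ratio of 5.80 (5.52 to 6.08). A Timp1 UMI was found in 38.3% of adult and 15.0% of young Csf1r-positive cells, and in 23.1% and 5.95% after thinning to 3000 UMIs. The remaining cells were at 231 and 59.1 CPM, a ratio of 3.91 (3.44 to 4.45). Neutrophil-rule cells held 17 adult and 0 young UMIs, at least 4.12-fold higher in the adult library against a floor of 3 counts in the young one (9.20 CPM). The cells with T cell markers, the free-RNA gauge, showed the same. They held 21 adult UMIs (29.6 CPM) in 123 cells and 0 young UMIs in 52. Whether neutrophil-rule cells hold Timp1 RNA apart from free RNA was not tested. In mCherry-high cells the levels were 71.5 CPM (67.5 to 75.6) in the adult and 64.1 CPM (60.4 to 68.0) in the young library, a ratio of 1.12 (1.03 to 1.21). Cells with T cell markers had a Timp1 UMI in 7.32% of 123 adult cells at a median total of 4223 UMIs, against a median of 10122.5 in adult Csf1r-positive cells. Timp1 lies inside the gene Syn1 on the opposite strand without overlap of exons, and Syn1 had 37 adult and 45 young UMIs.

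Fibroblasts are a known source of Timp1, and the sum of 6 fibroblast marker genes was also higher in the adult library. The 6 markers summed to 9.26 CPM in adult and 1.69 CPM in young Csf1r-positive cells, with all 6 detected in both, and 2.89% and 1.76% of cells had a UMI of any. Cells with none of them made up 97.1% of the adult and 98.2% of the young Csf1r-positive cells. Timp1 stood there at 190 CPM in the adult and 33.3 CPM in the young library, a ratio of 5.72. With so few cells left out, this ratio could hardly depart from that of the whole class. The part of fibroblast RNA in the Timp1 difference was not tested, here or in the remaining cells. Among the remaining cells the markers summed to 278 CPM in the adult and 13.4 CPM in the young library, with Lum at 0 in the young one. Most of the adult sum was Col1a1 (176 CPM) and Col1a2 (86.3 CPM), and the marker Dcn went the other way, at 4.15 against 11.2 CPM. Dcn was also at 155 and 111 CPM in mCherry-high cells, so it is not particular to fibroblasts here. Leaving out the remaining cells with any marker UMI gave a Timp1 ratio of 3.48 in that class. Few cells carried Timp1 in the young remaining cells, where 1 cell held 119 of 327 UMIs.

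The age difference in Timp1 was present at every combination of 4 monocyte and macrophage genes that could be compared. The genes were Ly6c2 (a monocyte surface protein), Hmox1 (heme oxygenase), Mrc1 (the mannose receptor) and Nos2 (nitric oxide synthase), each scored as present at 1 UMI or more. Presence of Mrc1 was seen in 19.8% of adult and 6.97% of young Csf1r-positive cells, Ly6c2 in 80.0% and 91.3%, Hmox1 in 58.8% and 77.9% and Nos2 in 52.7% and 73.8%, so the libraries were made of these kinds in different proportions. Of the 16 combinations, 10 had at least 50 cells in both libraries, and Timp1 was higher in the adult library in 10 of 10, with log2 ratios of 0.94 to 3.11 and a mean of 2.13, against 2.37 over the whole class. The log2 ratio, here and below, uses a pseudocount of 5 CPM. On either side of each single split the ratio of adult over young Timp1 lay between 3.08 (cells without Ly6c2) and 7.32 (cells with Nos2). Adult levels spanned 51.7 to 307 CPM over these combinations and young levels 6.44 to 42.6 CPM. Among the 6 combinations left out for small numbers, cells with Mrc1 and Nos2 but without Hmox1 did not show it. Those with Ly6c2 were at 221 CPM in 105 adult and 217 CPM in 30 young cells. Those without Ly6c2 were at 259 CPM in 30 adult and 247 CPM in 5 young cells. The young levels rested on 80 and 8 Timp1 UMIs, and the part of single rich cells in them was not tested. Mmp12 was higher in the adult library in 8 of the 10 combinations, with a mean log2 ratio of 0.71. Both exceptions were cells with Hmox1 but without Ly6c2 and Mrc1, at 117 CPM in adult and 199 CPM in young cells without Nos2, and at 341 and 390 CPM in those with it.

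**Figure D4:**
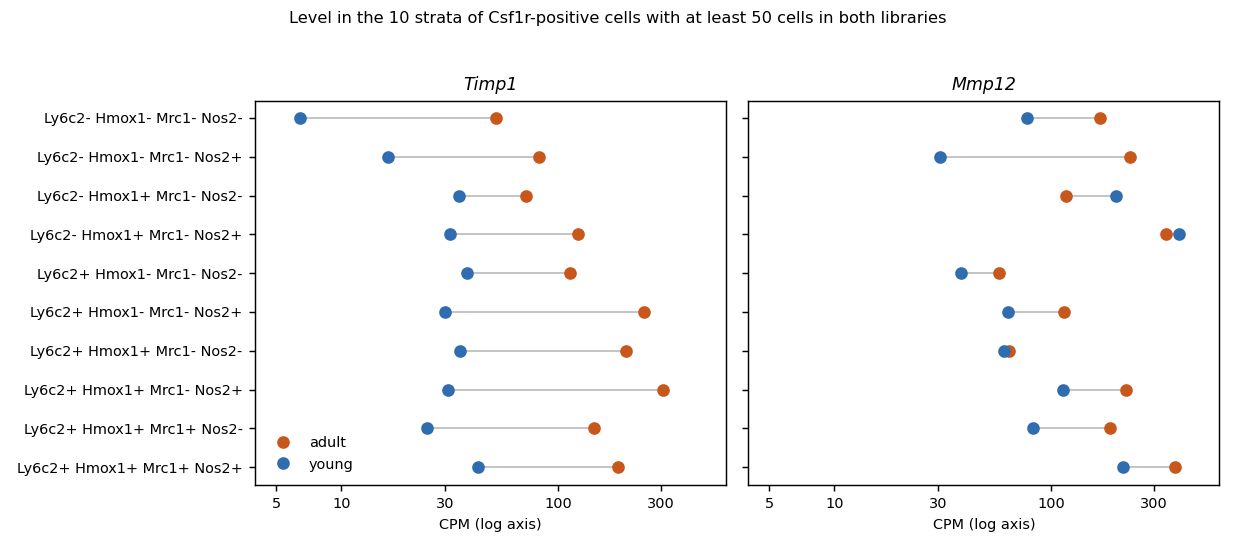
Level (CPM, log axis) of Timp1 (left) and Mmp12 (right) in adult (orange) and young (blue) Csf1r-positive cells, for each of the 10 combinations of Ly6c2, Hmox1, Mrc1 and Nos2 presence (rows) with at least 50 cells in both libraries. The adult point lies to the right in 10 of 10 rows for Timp1 and in 8 of 10 rows for Mmp12.

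Timp2, the inhibitor that binds MMP14 and takes part in pro-MMP2 activation (ENSMUSG00000017466, chr11:118301069-118355740, minus strand), was high in mCherry-high cells. It stood at 204 CPM (198 to 211) in adult and 246 CPM (239 to 254) in young mCherry-high cells, a ratio of 0.830 (0.794 to 0.869). Of these cells 80.3% and 82.5% had a Timp2 UMI, and 35.4% and 42.0% after thinning. The level was high with or without a Csf1r UMI. Without one, mCherry-high cells were at 197 CPM in the adult and 214 CPM in the young library, and those with one at 213 and 267 CPM. Cells without a Csf1r UMI were not free of macrophage RNA. Of these, 92.4% of the adult and 94.2% of the young ones had a UMI of any macrophage marker. Neutrophil-rule cells were at 176 CPM (140 to 219) and 178 CPM (135 to 230), from 79 and 58 UMIs. These cells are shallow, and the part of free RNA in their CPM was not tested. They held 0.405 adult and 0.475 young Timp2 UMIs a cell, where cells with T cell markers held 0.195 and 0.212. Csf1r-positive cells stood at 30.6 CPM in the adult and 25.9 CPM in the young library, which is not above the 33.8 and 30.2 CPM of cells with T cell markers. The cells with T cell markers are shallower, with medians of 4223 adult and 4847.5 young UMIs against 10122.5 and 10349. How depth bears on the part of free RNA in their CPM was not tested. Counted per cell, Csf1r-positive cells held more Timp2 than that gauge, with 1477 UMIs in 4358 adult and 1576 in 5520 young cells. A level apart from free RNA was not tested for the class as a whole. That gauge rests on 24 adult and 11 young UMIs, with intervals of 21.7 to 50.3 and 15.1 to 54.1 CPM. Cells of the class with Mrc1 were at 45.4 CPM in the adult library, inside the interval, and at 56.6 CPM in the young library. The gene contains Cep295nl on the same strand without overlap of exons, with 25 adult and 18 young UMIs.

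Within Csf1r-positive cells, Mmp12 and Mmp13 were higher in cells with Mrc1 and in cells with Hmox1, in both libraries. Cells with Mrc1 had 287 CPM of Mmp12 against 146 CPM without in the adult library (ratio 1.97, 1.89 to 2.06), and 199 against 106 CPM in the young library (1.88, 1.76 to 2.01). For Mmp13 the values were 58.4 against 26.6 CPM in the adult and 68.5 against 26.3 CPM in the young library. Timp2 was at 45.4 against 25.7 CPM and 56.6 against 23.1 CPM. Of 7 members measured, 3 were higher and 1 lower (Mmp9) with Mrc1 in the adult library, where 2.03% and 1.6% of features were. In the young library 5 of 7 were higher, Mmp8 and Timp1 besides those 3, and 0 lower (1.97% and 0.9% of features). Leaving out the 10 cells richest in a member from each side kept Mmp12, Mmp13 and Timp2 higher in the adult library. In the young library, where 385 cells had Mrc1, it kept Timp2 alone (ratio 2.01) and turned Mmp8 (0.775) and Timp1 (0.701). Cells with Mrc1 were deeper, with medians of 13183 against 9628 UMIs in the adult and 12377 against 10243 in the young library. Presence of Hmox1 went with Mmp12 at 208 against 136 CPM in the adult and 126 against 62.0 CPM in the young library, and with Mmp13 at 42.8 against 21 and 31.8 against 21.1 CPM. These 2 genes were the members higher with Hmox1, of 7 measured in the adult (0.908% of features) and 6 in the young library (1.1%), and Mmp9 was lower in the adult one (0.485% of features), while 0 were lower in the young one (0.432%).

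Nos2 separated Mmp12 at both ages and Timp1 in the adult library. Cells with Nos2 had 254 CPM of Mmp12 against 94.1 CPM without in the adult library, a ratio of 2.70 (2.57 to 2.84), and 127 against 65.8 CPM in the young library, a ratio of 1.94 (1.81 to 2.08). Timp1 was at 241 against 135 CPM in the adult library (1.79, 1.72 to 1.87) and at 33.0 against 33.9 CPM in the young library (0.971, 0.874 to 1.08). Timp2 went the other way in the adult library, at 24.3 against 38.0 CPM. Of 7 members in the adult library 2 were higher and 2 lower (Timp2 and Mmp9) with Nos2, where 1.62% and 1.38% of features were. In the young library 2 of 6 were higher, Mmp12 and Mmp13, and 0 lower (0.936% and 0.814% of features).

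Presence of Ly6c2 went with a higher Timp1 level in the adult library. Adult cells with Ly6c2 had 219 CPM of Timp1 against 81.5 CPM without, a ratio of 2.69 (2.50 to 2.90), while young cells had 33.7 against 26.4 CPM (1.27, 1.05 to 1.56). Mmp13 was lower with Ly6c2 at both ages, at 31.2 against 48.1 CPM in the adult and 28.5 against 47.7 CPM in the young library. Mmp12 was at 166 against 240 CPM in the adult library, short of 1.5-fold, and at 102 against 276 CPM in the young library (0.371, 0.348 to 0.396). Timp2 was at 24.2 against 56.9 CPM in the adult library. In the adult library 1 of 7 members was higher with Ly6c2 and 3 were lower, Mmp9 among them (1.33% and 1.93% of features). In the young library 0 of 7 were higher and 3 lower, namely Mmp12, Mmp13 and Mmp8 (0.867% and 1.96% of features). Some of these splits rested on few cells. Without the 3 cells richest in Mmp9, that gene was under 10 CPM on both sides of all 4 splits in the adult library, so its count as lower with Ly6c2, Hmox1, Mrc1 and Nos2 rests on them. Leaving out the 10 cells richest in a member from each side turned the direction for Mmp8 (1.12) and Mmp13 (1.29) with Ly6c2 in young cells and for Mmp9 with Ly6c2 and with Hmox1 in adult cells (both 1.04), and it ended the Mmp13 difference with Ly6c2 in adult cells (0.805). It takes a larger share of the smaller side, which for Ly6c2 in the young library is the 480 cells without it.

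**Figure D5:**
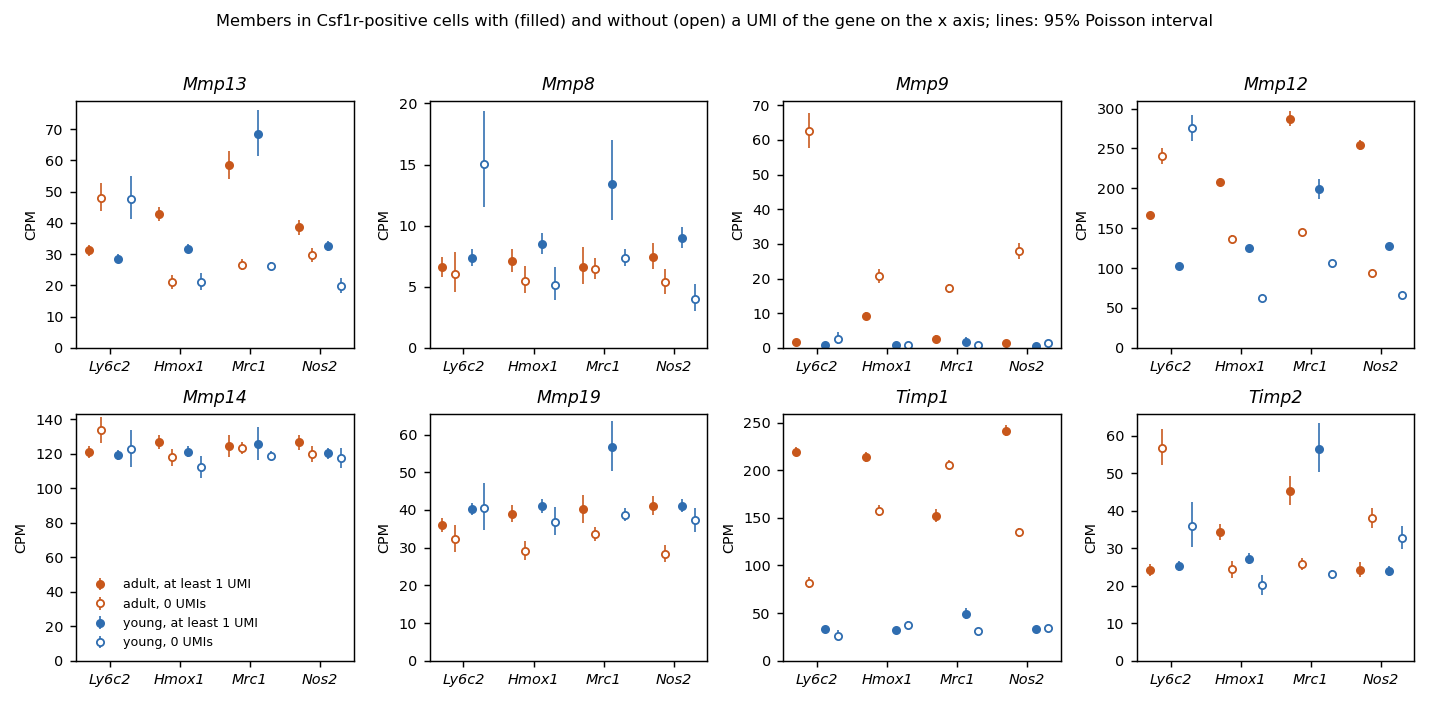
Level (CPM, y axis) of each member in Csf1r-positive cells with at least 1 UMI (filled) and with 0 UMIs (open) of the gene on the x axis, adult in orange and young in blue, with 95% Poisson intervals. Mmp14 is nearly level throughout, Mmp12 stands higher in cells with Hmox1, Mrc1 and Nos2, and Timp1 separates by Ly6c2 and Nos2 in the adult library.

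A low mCherry count did not mark members. Between Csf1r-positive cells with 1 to 9 mCherry UMIs (18.2% of adult and 17.8% of young ones) and those with 0, no member was higher in either library (0.608% and 0.233% of features), and Mmp9 alone was lower, in the adult library (0.0936% of features, and 0.0932% in the young one, where 0 members were). The 3 cells richest in Mmp9 had 0 mCherry UMIs and held 524 of the 638 Mmp9 UMIs of the adult cells with none.

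The other genes of the pathway, from lists chosen beside the members, held single genes that differed in Csf1r-positive cells, where 2.5% of all features were higher in the adult library and 3.42% lower. Of the 15 other MMP genes listed, 0 reached 10 CPM there, and the neutrophil serine protease genes Elane, Ctsg and Prtn3 did not reach it in any class. Fn1 (fibronectin, a substrate of several MMPs) was the sole matrix substrate of 13 at 10 CPM, at 912 CPM in adult and 338 CPM in young cells. Spp1 (osteopontin, which MMPs can cleave) was at 981 against 392 CPM, and Cd63, a membrane protein that binds TIMP1, at 220 against 145 CPM, the 2 of 10 measured activators, docking proteins and uptake receptors that were higher. Plau (urokinase, which starts the plasmin cascade that can activate MMPs) was at 15.9 against 8.64 CPM, the 1 of 5 plasminogen activation genes. Adam8, a membrane metalloprotease of myeloid cells, was lower at 374 against 591 CPM, the 1 of 5 ADAM and ADAMTS genes. The list medians of log2 ratios were 0.17 for the docking and receptor genes, 0.36 for plasminogen activation and -0.09 for the ADAM and ADAMTS genes, beside -0.04 for all features.

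In mCherry-high cells, where 0.948% of all features were higher and 4.29% lower, Col3a1 (a fibrillar collagen) and Fn1 were the 2 higher of 9 matrix substrates measured, at 114 against 46.3 CPM and 173 against 108 CPM. Slpi (an inhibitor of serine proteases), Adam8 and Itgb2 (an integrin chain of leukocytes) were lower, at 37.6 against 65.0, 37.0 against 71.5 and 33.0 against 54.2 CPM. Macrophage markers summed to 777 CPM in adult and 1323 CPM in young mCherry-high cells, and their part in these lower values was not tested. Among the remaining cells 8 of 11 matrix substrates measured were higher in the adult library and 1, Dcn, was lower, beside 8.55% and 7.23% of all features. The largest were Col1a1 with 720 adult and 6 young UMIs, Col1a2 with 353 and 1, and Sparc with 795 and 65. Col1a1 and Col1a2 are themselves in the fibroblast marker list, so this is the same signal as the marker sum given above. In neutrophil-rule cells 4 of 8 AP-1 genes were higher in the adult library (3.16% of all features), among them Jund at 475 against 258 CPM, Atf3 at 785 against 432 CPM and Jun at 763 against 481 CPM, with a list median of 0.63 beside -0.13 for all features. Of 11 activators, docking proteins and uptake receptors in those cells 2 were higher, Cd74 (the invariant chain) at 2662 against 1628 CPM and Furin (a protease that activates Mmp14) at 252 against 163 CPM. Spp1 was the 1 lower, at 2520 against 3980 CPM (6.79% of all features), and Fn1 was the 1 higher of 2 matrix substrates, at 158 against 101 CPM.

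Likeness was measured as Pearson's r of log2(CPM + 5) over 31 profiles (mCherry-high, neutrophil-rule and remaining cells and the combinations of the 4 genes, each in each library, with at least 50 cells) among 9252 features. The profiles share libraries and classes, so these values describe and test nothing. Timp1 was closest to Pim3 (r = 0.840, and 0.712 within the adult and 0.767 within the young profiles), Manf (0.798) and S100a4 (0.773). Timp2 was closest to Cd63 (0.862), Ctnnb1 (0.829) and Hnrnpc (0.824). Mmp12 was closest to Hk2 (0.866), Klf7 (0.802) and Arrb1 (0.801), and Mmp13 to F13a1 (0.836), Mxi1 (0.789) and Bmt2 (0.777). For Mmp14 the closest were Capns1 (0.948), Mrps18c (0.944) and Taf10 (0.942), and for Mmp19 they were Lrp1 (0.937), Tmem106a (0.935) and Galnt6 (0.930). Mmp8 was closest to Hcar2 (0.914), Bnip3l (0.909) and E230032D23Rik (0.908). Mmp9 was closest to Atp6v0d2 (0.822), Fam102a (0.795) and Jdp2 (0.789), and for Atp6v0d2 r was 0.875 within the adult and 0.863 within the young profiles. The 3 adult cells richest in Mmp9 held 80% of the Mmp9 and 50.8% of the Atp6v0d2 UMIs of adult Csf1r-positive cells. Their part in these values was not tested.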

How the data were processed

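The authors deposited raw UMI counts per gene and cell barcode for 2 libraries of sorted mCherry+ tumour cells, 1 of adult and 1 of young mice. Per the submitters' processing notes these were made with Cell Ranger 3.0.2 on mm10. The annotation used for counting, and whether strand was used, is not given in these sources. The deposited libraries held 6279 adult and 7558 young barcodes with totals of 70988070 and 84862471 UMIs. Cells with under 200 genes or over 10% mitochondrial counts were left out (505 adult, 468 young). Counts were summed per class and library and divided by the sum of all genes (CPM). Scripts ran in Python 3.11.15 with numpy 2.4.6, scipy 1.17.1 and pandas 2.3.3, and doublets were scored with Scrublet in scanpy 1.11.5. Levels carry exact Poisson intervals, shares exact binomial (Clopper-Pearson) intervals, and ratios the interval of the conditional binomial, all at 95% and for counting error only. No p-value was computed, since cells of 1 library do not replicate an age. Thinned shares use 3000 UMIs drawn per cell and leave out shallower cells. The ratio calculation was tested on simulated counts. Positions are from GENCODE M21 on mm10. The members and lists were chosen with earlier results of these data known. All 8 members are named, and of each pathway list at most the 3 genes with the largest ratio in each direction among those that passed.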

Additional observations from a re-analysis of the deposited data

How the results depend on the processing

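No paired analysis was possible because each age is 1 library, and for the same reason no replicate could be left out. Adult over young Timp1 in Csf1r-positive cells lay between 4.37 and 7.0 over 19 alternatives and passed in each; in the remaining cells it lay between 3.48 and 5.79. Mmp12 in Csf1r-positive cells lay between 1.49 and 1.69 and passed in 17 of 19, and Mmp9 between 1.75 and 22.5, passing in 14 of 19. Mmp14 stayed between 1.01 and 1.08. The number of members that passed moved by over 1.5 times as follows, and the cause was not tested. In Csf1r-positive cells it was 3, and 1 (Timp1) with cells thinned to 3000 UMIs. In the remaining cells it was 4, and 1 with a minimum of 2 Csf1r UMIs or of 50 CPM, and 2 with thinning, with each cell weighted equally or with a 2-fold limit; the count of other pathway genes there was 17, and 9 at 50 CPM. In neutrophil-rule cells it was 4, and 0 with S100a8 and S100a9 at 0.5% of UMIs, 2 at 2% or at 50 CPM, 1 with thinning and 0 without the 10 richest cells. Leaving those cells out always takes the lower library to 0 UMIs here, because it held 6 or fewer of each of those members, so levels cannot be compared. In mCherry-high cells the number of members that passed was 0, and 2 with scaling that leaves out mitochondrial and ribosomal protein genes, 3 with no CPM minimum and 1 without cells with a fibroblast marker UMI. With a 2-fold limit the splits gave 1 in place of 2 (Hmox1, young), 2 in place of 4 (Mrc1, adult), 2 in place of 5 (Mrc1, young), 2 in place of 4 (Nos2, adult) and 0 in place of 2 (Nos2, young). Hmox1 gave 1 in place of 3 in the adult library with cells weighted equally, and 1 in place of 2 in the young one with 2 Csf1r UMIs; Nos2 gave 1 in place of 2 in the young library at 2 UMIs of Nos2. Without the 10 richest cells Ly6c2 in the adult library gave 2 in place of 4 and Mrc1 in the young library 1 in place of 5. The directions that turned under that setting were Mmp9 with Ly6c2 (1.04) and Hmox1 (1.04) in adult cells, Mmp8 (1.12) and Mmp13 (1.29) with Ly6c2 and Mmp8 (0.775) and Timp1 (0.701) with Mrc1 in young cells. That setting, the one without the 3 cells richest in Mmp9 and the one without fibroblast marker cells were chosen after seeing the data. Median-of-ratios scaling shifted the median of all features by -0.14 (log2) in neutrophil-rule cells, and by 0.05 or less in size elsewhere. The shift from scaling without mitochondrial and ribosomal protein genes was largest in size in the remaining cells, at -0.08. In neutrophil-rule cells Timp1 has no ratio under most settings, because the young library held 0 UMIs, and with the class drawn at 0.5% its ratio was short of the limit. Depth limits the neutrophil-rule class most, where no member had over 98 UMIs in a library.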
